A study of Homo sapiens with 12 samples.

Results

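Transcripts of 30 genes of the nuclear pore complex were followed in cytoplasmic RNA of U2OS cells, among 16883 genes measured on 12 exon arrays. The 30 genes were taken by name, and only probe sets that carry no other gene symbol in the array annotation were used. They had 1008 such probe sets, of which 892 passed a filter on dim signal, a mean over the 12 arrays above 2.04, the median over all probe sets. Each gene kept between 8 (NUP42) and 70 (AHCTF1) probe sets, so that none was lost to the filter. The annotation lists NDC1 as TMEM48, NUP58 as NUPL1 and NUP42 as NUPL2. Probe sets shared with near-identical copies were left out, 34 for POM121, 19 for RANBP2 and 3 for NUP62, and the values of these 3 genes are less certain for that reason.

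U2OS is a human osteosarcoma line, and every sample came from cells with a stable, doxycycline-inducible copy of K294A, a capping enzyme of the cytoplasm that cannot catalyse. Induced cells received doxycycline at 1 ug/ml for 24 h and uninduced cells did not. RNA was taken from a cytoplasmic extract and depleted of ribosomal RNA, and it was then left untreated or digested with purified Xrn1, which chews RNA from a 5' monophosphate end and is stopped by a cap. This gave 4 groups of 3 arrays: uninduced untreated, uninduced Xrn1, induced untreated and induced Xrn1. The question behind the design is which messages need cytoplasmic capping to keep their cap. The sample titles call the arrays biological replicates and give each Xrn1 array the number of an untreated array. They do not say whether the line is a single clone or whether the replicates came from separate cultures. Each p therefore measures only the spread between these samples.

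The nuclear pore complex is the gate in the nuclear envelope through which proteins and RNA pass. A scaffold of Y-shaped complexes and an inner ring holds the pore open in the membrane, nucleoporins with phenylalanine-glycine (FG) repeats fill the channel and bind transport receptors, a basket reaches into the nucleus, and a set of proteins on the cytoplasmic side releases exported mRNA from its carrier. Pores are taken apart and rebuilt at each division of a human cell.

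A short look at the start sites shows which promoter sequences the group shares. RefSeq (GRCh38.p14) gave a window from 250 bases before to 50 bases after the start for 27 of the 30 genes, 34 windows in all; AHCTF1, GLE1 and NUP43 were not matched. The ETS-type motif CCGGAAG, searched on both strands, was in 11 of the 34 windows (32.4%) against 10.3% of all 35116 windows. An NRF1-type palindrome, spelled by the capitals in the second NUP107 line and the NUP62 line below, was in 3 windows (8.8%) against 1.2%. GGGCGG (44.1% against 45.0%) and CCAAT (41.2% against 34.6%) were near the share of all windows, and TATAAA was in 1 window, of NUP93 (2.9% against 11.5%). None of these 5 motifs lies inside another. The stretches of 4 genes that the results below turn on are given 5′ to 3′ along the gene, with the motif in capitals; CTTCCGG is CCGGAAG on the other strand. A match describes the letters only and not a bound site.
NUP107 (chr12:68686948-68686977, + strand): tctgttttagggacagactgCTTCCGGgtc
NUP107 (chr12:68686874-68686923, + strand): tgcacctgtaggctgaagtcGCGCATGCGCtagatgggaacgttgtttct
NUP37 (chr12:102120115-102120148, - strand): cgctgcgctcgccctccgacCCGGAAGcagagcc
NUP58 (chr13:25301539-25301585, + strand): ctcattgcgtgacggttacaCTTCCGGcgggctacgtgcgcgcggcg
NUP62 (chr19:49929534-49929583, - strand): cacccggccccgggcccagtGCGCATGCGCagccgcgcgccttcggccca

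The values were deposited on a log2 scale, and the arrays' offsets change sharply at a single place in the deposited table, after 650745 of its 1411399 probe sets (46.1%). The median of the second part minus that of the first was -1.31 on uninduced Xrn1 array 2, -1.20 on induced untreated array 2, -0.66 on induced untreated array 1, -0.58 on uninduced Xrn1 array 3, -0.23 on uninduced untreated array 1 and 1.07 on uninduced untreated array 2. On the other 6 arrays it lay between 0.02 and 0.16. The first part holds 14 of the pore genes (NUP133, NUP43, AHCTF1, NUP205, NUP155, NUP35, NUP210, NDC1, POM121, NUP54, TPR, NUP153, RANBP2 and NUP42), the second holds 15, and the probe sets of NUP50 lie in both, 13 in the first and 28 in the second. What made the step was not tested. The results are therefore given on the values as deposited and again after each part of the table had been quantile normalised by itself, called part-normalised here, an alternative chosen after the step had been seen. Correlations over genes (no independent replicates) between arrays of the same group were 0.711 to 0.967 as deposited and 0.878 to 0.975 part-normalised. As deposited limma used a common SD of 0.42 for every gene, and so every difference between 2 groups has an SE of 0.34 and every difference of differences 0.48. Its prior degrees of freedom were infinite, so the p-values as deposited treat this SD as known without error. Very small ones overstate what 3 arrays a group can show. Part-normalised, gene-wise SDs ran from 0.199 to 0.658 with a median of 0.247. The pore genes then had SEs from 0.178 to 0.264, and from 0.251 to 0.374 for the difference of differences.

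**Figure D1:**
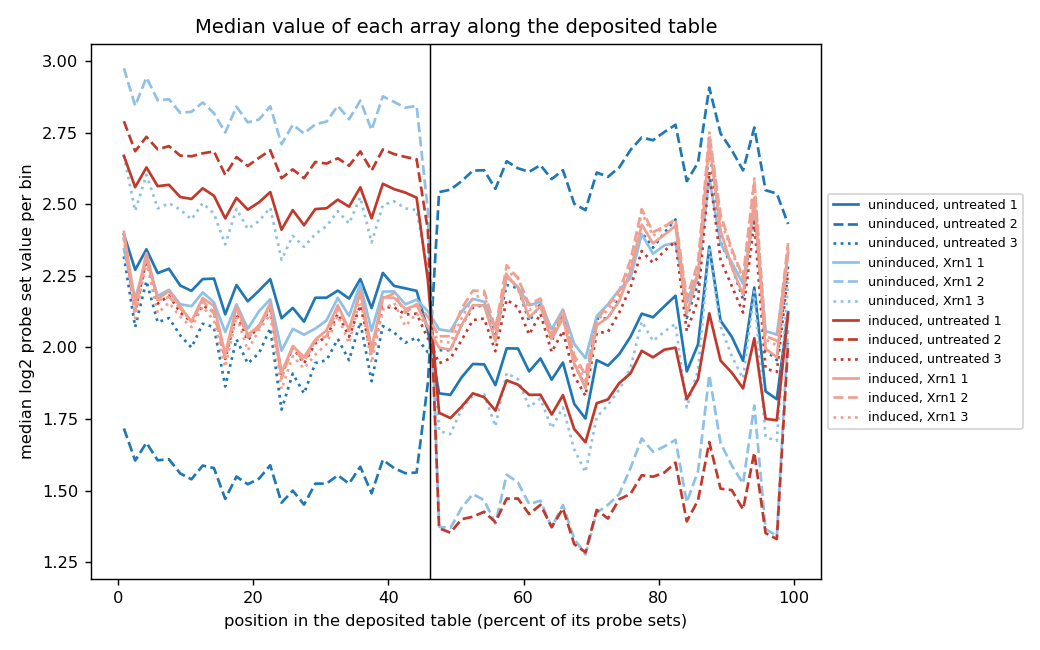
Median log2 probe set value of each of the 12 arrays (lines, coloured by group, line style by replicate) in bins along the deposited table, with the position in percent of its probe sets on the x axis. At 46.1% of the table (vertical line) uninduced untreated array 2 steps up and uninduced Xrn1 array 2, induced untreated array 2 and 3 further arrays step down.

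Xrn1 digestion in uninduced cells asks which transcripts lose signal when RNA with open 5' ends is removed without K294A. Of the 30 pore genes 25 fell on the deposited values (limma, Benjamini-Hochberg adjusted p under 0.05 over all genes) and none rose, against 31.8% of all genes called lower and 7.24% called higher. The median log2 difference, Xrn1 minus untreated, was -1.92 over the pore genes and -0.27 over all genes. Part-normalised, 30 of 30 fell, against 37.3% of all genes, with medians of -1.76 and -0.12, and none rose against 15.9%. Within the table's parts, 9 of 14 fell in the first (19.3% of its genes) and 15 of 15 in the second (39.6% of its genes) as deposited. The 3 Xrn1 arrays lay below all 3 untreated arrays for 22 genes as deposited (33.6% of all genes) and for 30 part-normalised (40.5% of all genes). RMA and quantile normalisation set the arrays to a common distribution, so a fall is relative to the other RNAs measured. Part-normalised, the uninduced untreated arrays had medians of 4.97, 4.61 and 4.79 over the pore genes and 3.53, 3.29 and 3.61 over all genes. Genes above 6 went from 844, 698 and 697 on these arrays to 122, 192 and 156 after Xrn1. The shares of all genes are not matched for brightness, here or in induced cells, and matched shares were not counted.

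In induced cells the same digestion was applied where K294A was present. Here 22 of 30 pore genes fell as deposited and none rose, against 17.8% of all genes lower and 21.6% higher, and the medians were -1.40 for the pore genes and 0.10 for all genes. Part-normalised, 25 fell, against 25.3% of all genes, none rose against 24.1%, and the medians were -1.33 and 0.13. By table part, 11 of 14 fell in the first (25.3% of its genes) and 10 of 15 in the second (10.8% of its genes) as deposited. The Xrn1 arrays lay wholly below the untreated arrays for 21 genes as deposited (22.6% of all genes) and 26 part-normalised (25.8%). With each gene's own spread in place of the common SD, 11 passed as deposited (6.14% of all genes) and 25 part-normalised (23.1%). Called lower in both induction states were 20 pore genes as deposited and 25 part-normalised. The share of all genes lower in both states was not counted, and it cannot exceed the 17.8% as deposited and 25.3% part-normalised called lower in induced cells. The average over both states was lower for 27 as deposited (29.8% of all genes, with 14.2% higher) and 29 part-normalised (36.1%, with 30.6% higher).

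**Figure D2:**
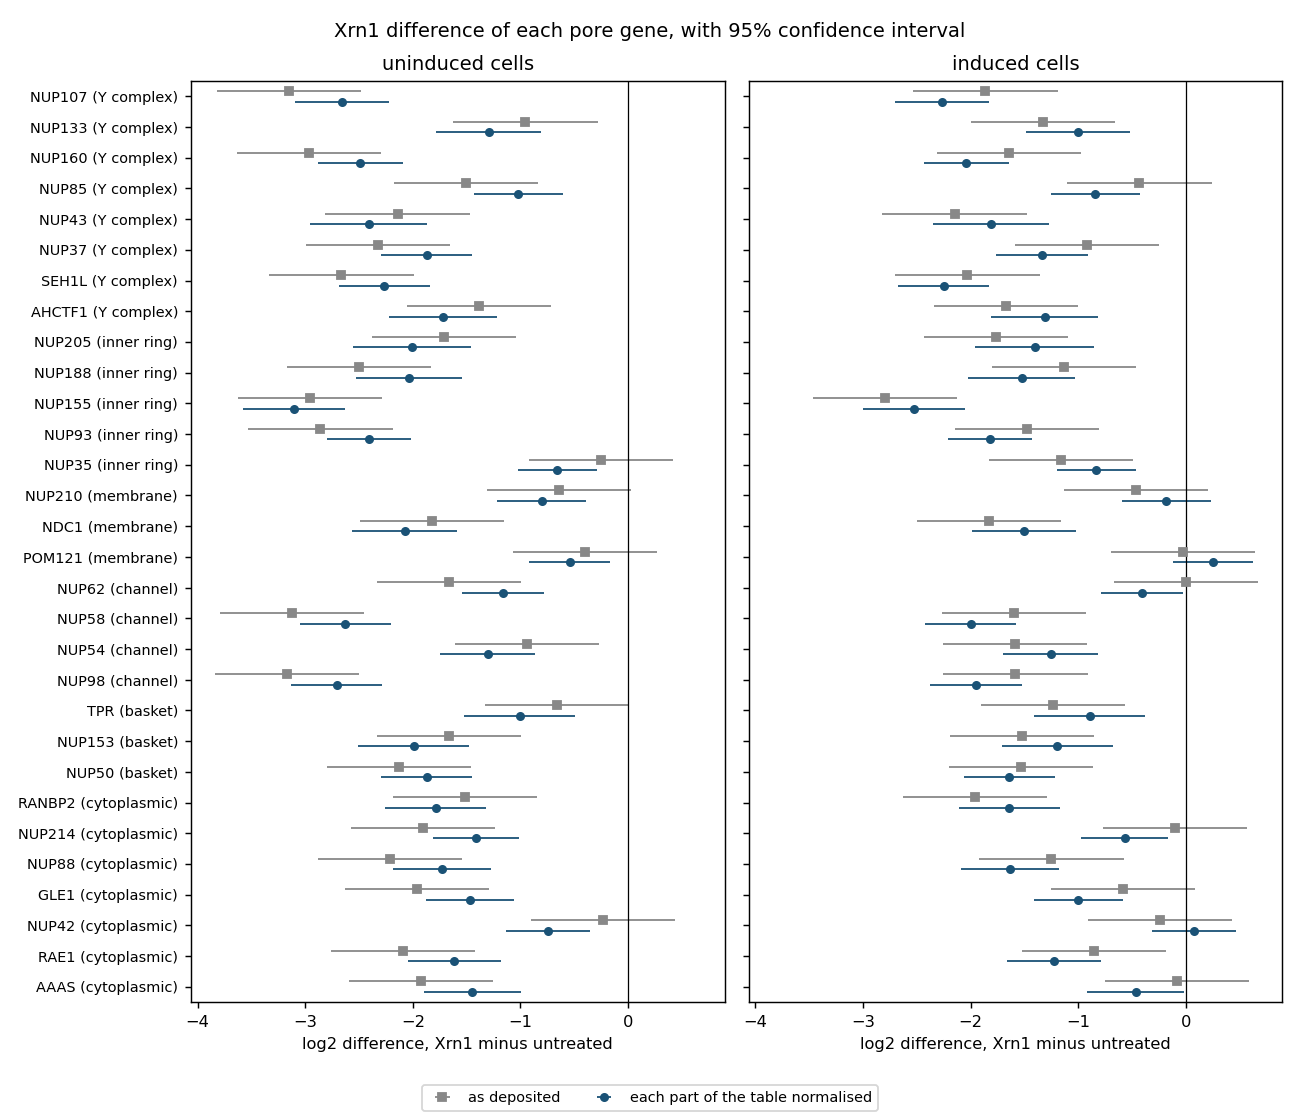
Log2 difference, Xrn1 minus untreated, of each pore gene in uninduced (left) and induced cells (right), with 95% confidence intervals from limma, as deposited (grey squares) and part-normalised (blue circles); genes are grouped by role. In uninduced cells all 30 part-normalised values lie below 0, and in induced cells POM121 and NUP42 lie at or above it.

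The Y complex, the outer scaffold of the pore, fell throughout in uninduced cells, 8 of 8 genes on both sets of values. In induced cells 7 of 8 fell as deposited and 8 of 8 part-normalised. NUP107, a stem nucleoporin of the Y, read 5.20, 5.13 and 5.34 on the uninduced untreated arrays and 2.12, 1.70 and 2.40 after Xrn1, and 3.53, 4.52 and 4.91 on the induced untreated arrays and 2.70, 2.18 and 2.50 after Xrn1. The groups did not overlap in either state, and the Xrn1 values came near 2.04, the median over all probe sets. Signal there is dim, which limits how far a further fall could be read. The difference in uninduced cells was -3.15 (SE 0.34, adjusted p = 4.19e-18, or 0.000812 with the gene's own spread), a level of 11.3% of that in untreated RNA. In induced cells it was -1.86 (adjusted p = 1.72e-06, or 0.0241 with the gene's own spread). Part-normalised, these were -2.66 and -2.27. NUP160, which forms an arm of the Y, changed by -2.96 and -1.65 as deposited and by -2.49 and -2.04 part-normalised. SEH1L, a propeller protein shared with a nutrient-sensing complex, stood at 7.14, 7.14 and 6.99 in uninduced untreated RNA and at 4.46, 4.23 and 4.59 after Xrn1. It changed by -2.66 in uninduced and -2.03 in induced cells as deposited, and by -2.26 and -2.25 part-normalised.

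The other 5 genes of the Y complex fell in uninduced cells as well. NUP43, a propeller protein on the short arm, changed by -2.14 and -2.15 as deposited and by -2.41 and -1.81 part-normalised. NUP37, which sits on NUP160, changed by -2.33 and -0.92 as deposited and by -1.87 and -1.34 part-normalised. AHCTF1 (ELYS), which seeds pores on chromatin after mitosis, changed by -1.39 and -1.67 as deposited over 70 probe sets and by -1.72 and -1.31 part-normalised. As deposited its uninduced groups overlapped, with untreated array 2 at 3.03 and Xrn1 array 2 at 3.14. With the gene's own spread this fall did not pass (adjusted p = 0.0637). NUP133, at the tip of the stem, read 4.29, 2.87 and 4.09 in uninduced untreated RNA and 2.33, 3.21 and 2.84 after Xrn1, so that uninduced untreated array 2 fell inside the range of the digested arrays. Part-normalised, the same arrays read 4.06, 3.69 and 3.96 against 2.43, 2.71 and 2.67, and no longer overlapped. NUP85, which holds SEH1L in the Y, had the smallest difference in induced cells of the 8 genes, -0.43 as deposited (adjusted p = 0.329) and -0.84 part-normalised (adjusted p = 0.00197).

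The inner ring, which anchors the pore to the membrane, fell for 4 of 5 genes in uninduced cells as deposited and 5 of 5 part-normalised, and for 5 of 5 in induced cells on both. NUP155, which bridges the ring and the membrane, read 7.01, 5.49 and 6.50 in uninduced untreated RNA and 3.02, 3.73 and 3.39 after Xrn1, and 5.62, 6.80 and 6.24 in induced untreated RNA and 3.90, 3.02 and 3.35 after Xrn1. The gap between the groups was wide in both states. The differences were -2.95 (adjusted p = 4.02e-16, or 0.00245 with the gene's own spread) and -2.79 (adjusted p = 2.11e-13, or 0.0194). Part-normalised they were -3.11 (SE 0.228) and -2.53 (SE 0.228). NUP93, the hub that recruits the channel nucleoporins, changed by -2.86 and -1.48 as deposited and by -2.41 and -1.82 part-normalised. The 2 large ring proteins NUP188 and NUP205 changed by -2.50 and -1.71 in uninduced cells and by -1.13 and -1.76 in induced cells as deposited. Part-normalised, NUP188 changed by -2.03 and -1.53 and NUP205 by -2.01 and -1.41. NUP35, which bends the membrane at the pore, read 3.30, 2.12 and 3.36 in uninduced untreated RNA against 2.44, 3.07 and 2.52 after Xrn1, with the lowest untreated value again on array 2. Its difference of -0.25 (adjusted p = 0.603) became -0.66 (adjusted p = 0.00383) part-normalised, while in induced cells it was -1.16 (adjusted p = 0.00395) and -0.83.

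The membrane nucleoporins, which span the nuclear envelope, split. NDC1, needed to insert pores into the membrane, read 5.58, 3.95 and 5.28 in uninduced untreated RNA and 2.79, 3.53 and 3.03 after Xrn1, and changed by -1.82 (adjusted p = 9.8e-07) and by -1.83 in induced cells. Part-normalised the differences were -2.08 and -1.50. NUP210, a large membrane protein that rings the pore in the envelope's lumen, differed by -0.64 (adjusted p = 0.124) and -0.46 (adjusted p = 0.29) as deposited. Part-normalised it fell by 0.80 in uninduced cells, and in induced cells the difference was -0.18 with an interval from -0.59 to 0.23. POM121, which helps to build new pores in interphase, read 5.11, 4.71 and 4.85 part-normalised in uninduced untreated RNA and 4.38, 4.31 and 4.35 after Xrn1, and 4.42, 4.45 and 4.80 in induced untreated RNA and 4.83, 4.68 and 4.93 after Xrn1. Its groups were apart in uninduced cells (-0.54, adjusted p = 0.0154) and overlapped in induced cells (0.25, adjusted p = 0.243). As deposited neither difference passed, -0.40 (adjusted p = 0.365) and -0.03 (adjusted p = 0.961). POM121 was also the only member whose average over both states was not called on the part-normalised values (-0.15, adjusted p = 0.317 from limma), and as deposited the average was not called for POM121, NUP210 and NUP42.

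The FG nucleoporins of the central channel, the selective filter of the pore, fell for 4 of 4 genes in uninduced cells and 3 of 4 in induced cells on both sets of values. NUP98, a mobile FG protein made from the same gene as the scaffold protein NUP96, read 5.92, 5.88 and 5.68 in uninduced untreated RNA and 2.69, 2.41 and 2.87 after Xrn1. Its difference of -3.17 (SE 0.34, adjusted p = 2.54e-18, or 0.000643 with the gene's own spread), a level of 11.1% of untreated RNA, was close to that of NUP107. In induced cells the difference of NUP98 was -1.58. Part-normalised it changed by -2.71 and -1.95. NUP58, whose start region is shown above, changed by -3.12 and -1.60 as deposited and by -2.63 part-normalised in uninduced cells, with 25.0% of the untreated level left in induced cells, and NUP54, its partner in the channel, by -0.94 and -1.58 as deposited and -1.30 and -1.25 part-normalised. As deposited the uninduced groups of NUP54 overlapped, with untreated array 2 at 2.70 and Xrn1 array 2 at 3.14. With the gene's own spread this fall did not pass (adjusted p = 0.148). NUP62, the third partner, read 5.35, 5.44 and 5.28 in uninduced untreated RNA and 3.93, 3.44 and 3.70 after Xrn1, and 3.82, 4.60 and 4.86 in induced untreated RNA and 4.52, 4.14 and 4.63 after Xrn1. It fell by 1.67 in uninduced cells (adjusted p = 8.31e-06), while in induced cells the groups overlapped and the difference was 0.00 with an interval from -0.67 to 0.67. Part-normalised these were -1.16 (adjusted p = 1.91e-05) and -0.41 (interval -0.79 to -0.03, adjusted p = 0.0686). The induced arrays then read 4.44, 4.82 and 4.65 untreated and 4.35, 3.95 and 4.37 after Xrn1, and did not overlap.

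**Figure D3:**
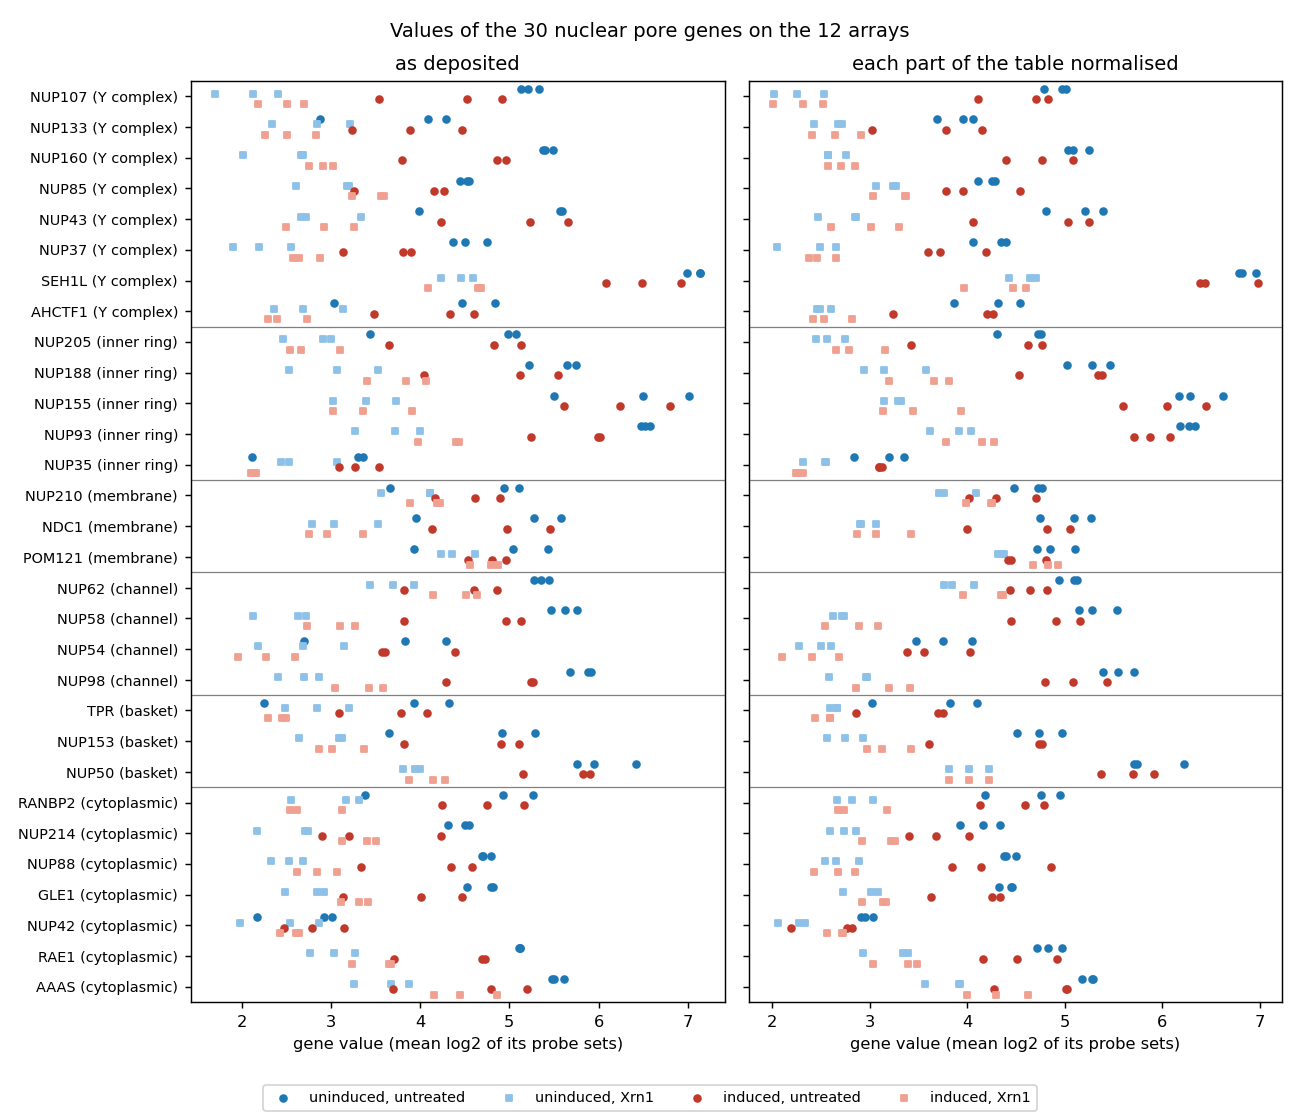
Gene values (mean log2 of a gene's kept probe sets, x axis) of the 30 pore genes on all 12 arrays, as deposited (left) and part-normalised (right); circles are untreated and squares Xrn1-digested RNA, blue uninduced and red induced cells, and lines separate the roles. As deposited, uninduced untreated array 2 lies apart from its group for the genes of the table's first part, such as TPR at 2.25 beside 4.32 and 3.93.

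The nuclear basket genes fell for 2 of 3 in uninduced cells as deposited and for 3 of 3 part-normalised, and for 3 of 3 in induced cells on both. NUP153, which attaches the basket, read 5.29, 3.65 and 4.92 in uninduced untreated RNA against 2.64, 3.13 and 3.09 after Xrn1, and changed by -1.67 and -1.53 as deposited and by -1.99 and -1.20 part-normalised. TPR, the coiled-coil protein of the basket filaments, read 4.32, 2.25 and 3.93 against 2.49, 3.20 and 2.84, with overlapping groups and a difference of -0.66 (adjusted p = 0.112). Part-normalised the arrays read 4.10, 3.02 and 3.83 against 2.59, 2.67 and 2.67, and the difference of -1.01 passed (adjusted p = 0.00193). In induced cells TPR changed by -1.24 as deposited and by -0.89 part-normalised. NUP50, a mobile basket protein, changed by -2.13 and -1.53 as deposited and by -1.87 and -1.64 part-normalised. Its probe sets straddle the step: part-normalised, the 13 in the first part had median differences of -1.86 and -1.43 and the 28 in the second of -2.18 and -2.24.

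On the cytoplasmic side, where messages are released from their carrier, 6 of 7 genes fell in uninduced cells as deposited and 7 of 7 part-normalised. In induced cells 3 of 7 fell as deposited and 5 of 7 part-normalised. RANBP2, the large filament protein that binds Ran, read 5.27, 3.38 and 4.93 in uninduced untreated RNA and 2.55, 3.31 and 3.16 after Xrn1, and changed by -1.52 and -1.96 as deposited and by -1.79 and -1.64 part-normalised. NUP88, which anchors NUP214, changed by -2.22 and -1.25 as deposited and by -1.73 and -1.64 part-normalised. RAE1, an mRNA export factor bound to NUP98, changed by -2.09 and -0.86 as deposited and by -1.61 and -1.22 part-normalised. NUP214, an FG protein and docking site for the export helicase, read 4.54, 4.31 and 4.50 in uninduced untreated RNA and 2.71, 2.18 and 2.75 after Xrn1, and 2.90, 3.20 and 4.24 in induced untreated RNA and 3.40, 3.12 and 3.50 after Xrn1. It fell by 1.91 in uninduced cells (adjusted p = 2.65e-07), and in induced cells the groups overlapped (-0.10, adjusted p = 0.849). Part-normalised it changed by -1.41 and by -0.57 (adjusted p = 0.0204).

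The other 3 cytoplasmic genes were not called in induced cells as deposited, and 1 of them, GLE1, was called there part-normalised. GLE1, which activates that helicase, changed by -1.96 in uninduced cells as deposited, with a difference of -0.59 in induced cells (adjusted p = 0.161), and part-normalised by -1.47 in uninduced cells and to 50.05% of the untreated level in induced cells (adjusted p = 0.000398). AAAS (ALADIN), a pore protein mutated in triple A syndrome, read 5.50, 5.62 and 5.48 in uninduced untreated RNA and 3.67, 3.26 and 3.88 after Xrn1, and 3.70, 4.80 and 5.20 in induced untreated RNA and 4.44, 4.16 and 4.86 after Xrn1. The uninduced groups were far apart (-1.93, adjusted p = 1.9e-07) and the induced groups overlapped (-0.08, adjusted p = 0.885). Part-normalised it fell by 1.45 in uninduced cells and the difference in induced cells was -0.47 (adjusted p = 0.0766). NUP42, a small FG protein that binds GLE1, read 2.92, 2.17 and 3.01 in uninduced untreated RNA and 1.98, 2.86 and 2.54 after Xrn1, all near the dim end of the scale. Neither of its differences passed as deposited (-0.24 in both states, adjusted p = 0.626 and 0.618). Part-normalised they were -0.74 (adjusted p = 0.00241) and 0.07 (adjusted p = 0.753).

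Single probe sets show how many of a gene's measurements fell; their positions along the transcript were not used here. Of the 892 kept probe sets of the pore genes, 518 (58.1%) were called lower after Xrn1 in uninduced cells as deposited and 5 higher, against 10.8% and 7.54% of all 705699 kept probe sets. In induced cells these were 369 (41.4%) and 10, against 5.52% and 6.89%. Part-normalised, 580 (65.0%) were lower and 6 higher in uninduced cells, against 11.2% and 8.57%, and 402 (45.1%) and 9 in induced cells, against 6.46% and 6.04%. Probe sets of a gene share their samples and are not replicates. Only 258175 of the 705699 kept probe sets carry 1 gene symbol, as all those of the pore genes do. The shares of all kept probe sets thus come mostly from probe sets of another kind, and shares among those with 1 symbol were not counted. NUP98 had 45 of 49 probe sets called lower in uninduced and 36 of 49 in induced cells part-normalised, NUP155 35 and 33 of 39, and NUP160 39 and 34 of 44. NUP214 went from 31 of 50 to 7 of 50, and AAAS from 11 of 18 to 2 of 18. At the other end POM121 had 8 and 2 of 31 called lower, and NUP42 3 and 0 of 8. For NUP214 part-normalised, 46 of 50 probe sets had a difference below 0 in uninduced and 39 of 50 in induced cells.

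Genes that work with the pore were counted in the same way, to be read against the shares of all genes called lower, 31.8% in uninduced and 17.8% in induced cells as deposited and 37.3% and 25.3% part-normalised. Of 7 measured genes of the Ran cycle, which drives transport through the pore, 5 fell in uninduced cells and 3 in induced cells on both sets of values. The 3 with the smallest adjusted p in the average over both states were SENP1, a SUMO protease at the basket, RAN itself and NUTF2, which carries Ran back into the nucleus. SENP1 changed by -2.67 in uninduced and -1.15 in induced cells as deposited and by -2.15 and -1.57 part-normalised. RAN changed by -2.02 and -0.94 as deposited and by -1.70 and -1.05 part-normalised. For NUTF2 these were -1.76 and -1.06, and -1.44 and -1.15. Of 15 measured mRNA export genes, 8 fell in uninduced cells and 0 in induced cells as deposited, where 1 rose; part-normalised 10 and 7 fell and 1 rose in induced cells. NXF1, the main mRNA export receptor, changed by -1.98 and -1.12, THOC5 of the THO complex by -1.65 and -1.06, and PCID2 of the TREX-2 complex by -1.51 and -0.93, part-normalised. As deposited these 3 changed by -2.46, -2.13 and -2.02 in uninduced cells, and in induced cells none of their differences of -0.72, -0.64 and -0.51 passed. At an unadjusted p under 0.05 limma gave 2 export genes lower in induced cells as deposited, and each gene's own spread gave 0 at an adjusted p.

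Of 15 genes of the nuclear lamina and envelope, 10 fell in uninduced cells on both sets of values, and 6 as deposited and 8 part-normalised in induced cells. LBR, the lamin B receptor, changed by -2.77 and -2.21, TMPO, which encodes the lamina-associated polypeptides, by -1.89 and -1.80, and LMNB1, lamin B1, by -1.81 and -1.62, part-normalised. As deposited LBR changed by -2.69 and -2.43, TMPO by -2.34 and -1.48 and LMNB1 by -1.79 and -1.90. LMNA, lamin A/C, differed by 0.23 in uninduced cells (adjusted p = 0.28) and rose by 0.60 in induced cells (adjusted p = 0.01) part-normalised, and neither difference passed as deposited (0.46 and 0.32). Of 5 further genes related to pore proteins, 2 fell and 1 rose in uninduced cells on both sets of values, and 1 fell in induced cells, shares that lie near those of all genes. TMEM33, a membrane protein that binds nucleoporins, changed by -1.39 and -1.04 as deposited and by -1.54 and -0.77 part-normalised. NUP62CL, a NUP62 relative, changed by -2.22 in uninduced cells as deposited and by -1.76 part-normalised, with differences of 0.05 (adjusted p = 0.934) and -0.39 (adjusted p = 0.17) in induced cells. NUP210L, a NUP210 relative, rose by 1.06 in uninduced cells as deposited and by 0.53 part-normalised, and differed by -0.20 (adjusted p = 0.68) and 0.12 (adjusted p = 0.603) in induced cells. POM121C, the near-identical copy of POM121, differed by -0.24 and 0.11 as deposited (adjusted p = 0.619 and 0.831) and by -0.34 and 0.40 part-normalised (adjusted p = 0.135 and 0.083), with none passing.

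The cell line and the induced gene were checked on the same arrays. Of 9 bone-lineage markers, COL1A1 and SPARC read 8.73 and 8.66 part-normalised in uninduced untreated RNA, while the other 7 had means between 2.21 (SPP1) and 3.75 (RUNX2). The 13 measured markers of blood, liver, brain, endothelium, muscle and epithelium had means there between 2.35 (PTPRC) and 4.02 (CD3E), and arrays have no zero by which they could be called absent. Their summed linear level per array ranged from 106.9 to 138.4 in uninduced untreated, 128.0 to 157.3 in uninduced Xrn1, 120.5 to 142.8 in induced untreated and 144.9 to 149.7 in induced Xrn1 RNA, and their part in the results was not tested. RNGTT, the gene of the capping enzyme, differed between induced and uninduced untreated RNA by 0.21 as deposited (interval -0.46 to 0.88) and by -0.16 part-normalised (interval -0.67 to 0.35). Whether its 24 probe sets match the K294A construct is not stated, so it checks no label. The message of the cells' own XRN1 changed by -1.18 after digestion in uninduced and by -0.87 in induced cells part-normalised, and by -0.82 and -1.22 as deposited.

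Induction of K294A without Xrn1 asks whether the inactive enzyme changes the cytoplasmic level of a message. In bulk RNA, fewer cells of a kind cannot be told apart from less RNA per cell. None of the 30 pore genes passed limma's adjusted p in either direction, against 0.0296% of all genes lower and 0.0118% higher as deposited and 0.0% in each direction part-normalised. At an unadjusted p under 0.05, limma gave 11 lower as deposited (27.2% of all genes) and 6 part-normalised (8.26%), with each gene's own spread it was 12 (22.2%) and 6 (7.63%), and none was higher in any of these. The median difference, induced minus uninduced, was -0.50 over the pore genes and -0.35 over all genes as deposited. Part-normalised it was -0.33 and -0.17, and all 30 pore genes were below 0, from -0.48 to -0.02, as were 12522 of 16883 genes. The induced arrays lay below all uninduced arrays for 14 pore genes as deposited (17.4% of all genes) and for 4 part-normalised (9.15%). Induced untreated array 1 was the lowest of its group for 29 of 30 pore genes on both sets of values, and for 52.6% of all genes part-normalised. Without that array the part-normalised median over the pore genes was -0.12, and without induced untreated array 3 the deposited values called 12 of 30 lower, and 6405 of all 16883 genes, a similar share. What array 1 carries that the others do not was not tested.

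Induction compared within Xrn1-digested RNA asks which digestion-resistant messages depend on the enzyme. Again no pore gene passed limma's adjusted p, against 0.00592% of all genes lower and 0.0533% higher as deposited and 0.00592% and 0.0711% part-normalised. At an unadjusted p under 0.05, limma gave 5 higher as deposited (8.66% of all genes) and 3 part-normalised (6.25%), each gene's own spread gave 5 (7.13%) and 2 (5.99%), and none was lower in any of these. The median difference was 0.26 over the pore genes and 0.28 over all genes as deposited, and 0.14 and 0.11 part-normalised. The induced arrays lay above all uninduced arrays for 9 pore genes as deposited (31.3% of all genes) and 5 part-normalised (18.6%), and below them for 1 as deposited (3.13%) and 0 part-normalised (2.29%). Part-normalised intervals for single genes reached from -0.67 at the lowest bound to 0.95 at the highest. Induced Xrn1 array 2 was the lowest of its group for 28 of 30 pore genes as deposited (55.4% of all genes) and for 27 part-normalised (53.4%). What sets that array apart was not tested.

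The last comparison asks whether the Xrn1 difference itself changed with induction, as the Xrn1 effect in induced cells minus that in uninduced cells. As deposited 12 pore genes passed, all with a smaller fall in induced cells, against 20.6% of all genes higher and 1.23% lower: NUP107, NUP160, NUP37, NUP188, NUP93, NUP62, NUP58, NUP98, NUP214, GLE1, RAE1 and AAAS. All 12 lie in the second part of the table, 12 of 15 there against 36.7% of its genes, while in the first part it was 0 of 14 against 0.0287%. Part-normalised none passed with limma, against 0.118% of all genes higher and 0.0118% lower. At an unadjusted p under 0.05, limma gave 14 higher as deposited (38.6% of all genes) and 10 part-normalised (14.2%), and each gene's own spread gave 14 (32.5%) and 8 (13.1%). The median was 0.62 over the pore genes and 0.70 over all genes as deposited, and 0.52 and 0.26 part-normalised. For AAAS the value was 1.85 (adjusted p = 0.0117) as deposited and 0.98 (interval 0.35 to 1.61, adjusted p = 0.157) part-normalised. For NUP214 these were 1.80 and 0.84 (adjusted p = 0.174) and for NUP62 1.67 and 0.75 (adjusted p = 0.197). The genes that fell only in uninduced cells by the part-normalised calls, AAAS, NUP62, NUP42, POM121 and NUP210, are therefore not shown to differ between the states, with differences of 0.98, 0.75, 0.82, 0.80 and 0.62 and adjusted p-values from 0.157 to 0.299.

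The deposited count of 12 also moved with single arrays. It was 0 without induced untreated array 1, induced Xrn1 array 1, induced Xrn1 array 3 or uninduced Xrn1 array 2, and 4, 6 and 7 without uninduced untreated array 3, induced Xrn1 array 2 and uninduced untreated array 2. The count over all 16883 genes, 3479 with every array, became 93, 116, 46, 60, 642, 1403 and 2043 in the same order. Without both arrays numbered 2 of the uninduced cells, which stood farthest apart at the step, the pore count was 0, and 1 over all genes. The falls after Xrn1 in uninduced and induced cells then numbered 29 and 22 as deposited, and 5680 and 3492 over all genes. Part-normalised, the pore count was 0 with each array left out in turn (7 to 210 over all genes), and without induced untreated array 1 the median over the pore genes was 0.24.

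**Figure D4:**
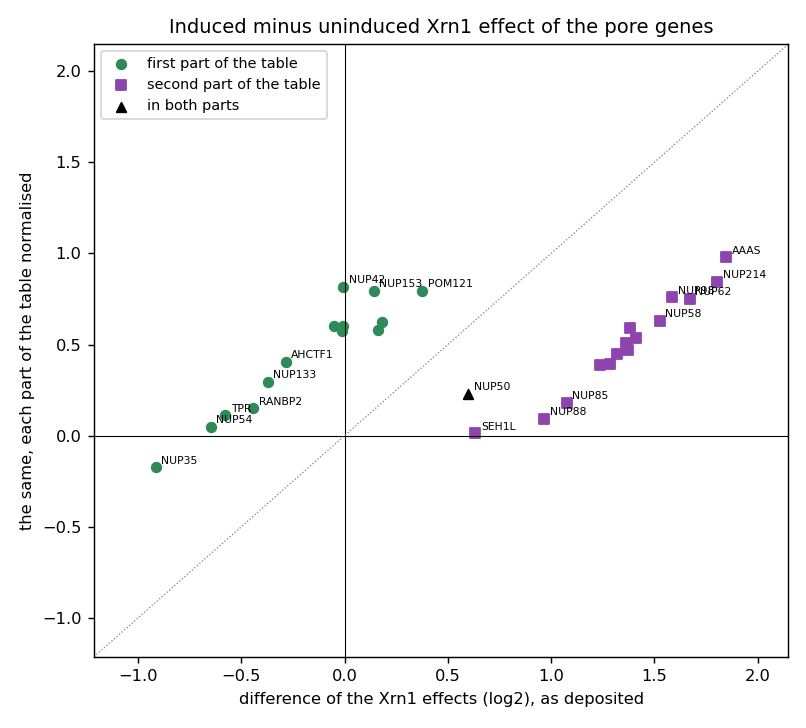
Difference of the Xrn1 effects (induced minus uninduced, log2) of each pore gene as deposited (x axis) and part-normalised (y axis), with symbols by the part of the table that holds its probe sets and a dotted line of equal values. As deposited the 15 genes of the second part lie to the right of 0 and apart from all 14 of the first part, and part-normalised both overlap between -0.17 and 0.98.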

How the data were processed

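Cytoplasmic RNA was measured on 12 exon arrays. The authors deposited log2 values per probe set, made with RMA in oligo per the submitters' processing notes, which name no version. Genes were named from the supplied probe annotation, with 2966 symbols updated. A gene's value is the mean log2 of its probe sets with 1 symbol and a mean above 2.04, with at least 3 of them. The 16883 genes were fitted with limma 3.58.1 (lmFit, eBayes; R 4.3.3) over 4 group means, with Benjamini-Hochberg adjustment over all genes and a threshold of 0.05, and the code was checked on simulated data. Arrays carry no counts, and their number limits the precision. Alternatives covered summary, filters, scaling, spread, replicate block and left-out arrays; part-normalised values, part centring and a repeated quantile normalisation were added after the data had been seen. The members and lists were chosen with earlier results of these data known. Every member is named, and 3 genes of each other list by adjusted p; LMNA, POM121C and the genes singled out by value were chosen after their values were seen. Title replicate numbers repeat for 1 sample, so replicates follow the sample numbers. No value column was left unmapped.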

Additional observations from a re-analysis of the deposited data

Results flagged for a closer look

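For 12 pore genes the Xrn1 effect differed between induced and uninduced cells by limma's test of the difference itself on the deposited values. The differences were 1.29 for NUP107, 1.32 for NUP160, 1.41 for NUP37, 1.36 for NUP188, 1.38 for NUP93, 1.67 for NUP62, 1.53 for NUP58, 1.59 for NUP98, 1.80 for NUP214, 1.37 for GLE1, 1.23 for RAE1 and 1.85 for AAAS. All 12 have their probe sets in the second part of the deposited table, where 36.7% of all genes were called the same way. After each part had been quantile normalised, none of them passed, with differences from 0.39 (NUP107) to 0.98 (AAAS) and adjusted p-values from 0.157 to 0.523. Dixon's outlier test was not applied, since groups have 3 arrays. Some single arrays that stand apart are named in the results above.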

How the results depend on the processing

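The 25 falls in uninduced cells held under all 38 settings for 22 genes, and the 22 in induced cells for 11. The 27 of the average held under all 37 settings for 23 genes, and the 12 differences of the Xrn1 effect for 0. How many of all genes held in this way was not counted. Fitting only the groups compared gives no value for the average or the difference of effects; it called 4 pore genes and 991 of 16883 genes higher with induction in Xrn1-digested RNA. With each gene's own spread, 11 fell in induced cells. NUP62 in induced cells turned from 0.00 to -0.51 part-normalised without induced untreated array 1. The count of genes with a smaller fall in induced cells went from 12 to 3 with the median of probe sets, 3 above the upper quartile, 7 with 1 kept probe set, 3 after centring (and 1 larger fall) and 0 with cyclic loess, own spread, centred parts, part-normalised values with either spread, and without both uninduced arrays numbered 2. Over all genes, 3479 called higher became 1415, 1158 of 13916 tested, 2162 of 18763 tested and 520, in the same order, and 165 with cyclic loess. Genes called lower, 208 in the main fit, then numbered 1336 after centring and 258 with cyclic loess, more than were called higher. The median over pore genes turned from 0.62 to -0.12 with cyclic loess. Above the upper quartile, 16 pore probe sets rose in induced cells, far fewer than fell, where 15.8% of all such probe sets, with or without a gene symbol, rose. Leaving out each array gave 23 to 28 falls in uninduced cells, 19 to 23 in induced cells, 26 to 28 on average, 0 to 12 lower with induction and 0 to 14 smaller falls. Part-normalised these were 29 to 30, 24 to 27, 28 to 29, 0 and 0. Over all 16883 genes the deposited ranges were 4450 to 6100, 1831 to 3532, 4440 to 5595, 0 to 6405 and 46 to 7736. The part-normalised ranges over all genes were 5510 to 6546, 3426 to 4987, 5759 to 6442, 0 to 2 and 7 to 210. For the pore genes the replicate block gave 25, 20, 27 and 0. Over all genes this block called 4858, 2538 and 4630 lower after Xrn1, and 137 higher in the difference of effects. The main fit did not pair same-numbered arrays. Their deviations from the group means correlated at -0.71 to 0.13 as deposited and -0.44 to 0.09 part-normalised. As deposited the step enters these deviations, and with 3 arrays a group such correlations cannot tell whether the samples are paired. The cause was not tested in any of these. Signal near the dim end limits how far a fall could be read, for NUP107, NUP37, NUP35 and NUP42 among others.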
